A study of Mus musculus with 2 samples.

Results

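Among CD45+ cells sorted from B16 melanomas, a rare set of B cells carried RNA of Cd9 and lacked RNA of Fcer2a. These Cd9+ Fcer2a- B cells were chosen by their own unique molecular identifiers (UMIs, tags that each mark 1 captured RNA molecule): at least 2 UMIs of Cd79a, at least 1 of Ms4a1, at least 1 of Cd9 and none of Fcer2a, Cd3e or Csf1r. Of 13040 cells kept, 79 met this gate, 48 in the h219-LLG library and 31 in the control library. All cells came from Vav-cre human LAIR1 transgenic mice, in which the transgene is switched on in blood-forming cells, on an mLAIR1-/- C57BL/6 background. The mice were 6 to 8 weeks old and carried subcutaneous tumors from 500000 injected B16 cells. The h219-LLG library came from mice given that humanized LAIR1 blocking antibody and the control library from mice given the isotype control antibody, each at 10 mg/kg every 4 days from day 5 for 3 doses, with tumors taken at day 16. The sources used here do not give the number of mice pooled. With 1 library per condition no p-value could be computed, and every interval below is a 95% interval for counting error only.

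Cd9 is a tetraspanin, a membrane protein that mouse marginal zone B cells, B-1 cells and plasma cells carry more of than follicular B cells do. Fcer2a encodes CD23, the low-affinity IgE receptor, which is typical of follicular B cells and low or absent on marginal zone and B-1 cells. Marginal zone B cells sit at the border of the splenic white pulp, depend on Notch2 signals and carry much CD21 (Cr2) and CD1d. B-1 cells are self-renewing B cells of the body cavities that make natural antibody, with the transcription factor Bhlhe41 as a regulator of their identity in mice. Both kinds of cell respond fast to blood-borne or mucosal antigen, and both have been described as sources of interleukin-10.

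The gate rested on few molecules. Cd9 was a single UMI in 35 of the 48 h219-LLG cells and in 23 of the 31 control cells, and the highest Cd9 count was 6 and 7 UMIs. Cd79a, a signaling chain of the B cell antigen receptor, had a median of 9 UMIs in both libraries, and 3 h219-LLG cells and 2 control cells stood at the lower end with 2 or 3 UMIs. Just outside the gate stood 2 h219-LLG cells and 0 control cells with 1 UMI of Cd79a, and 12 h219-LLG cells and 7 control cells with 1 UMI of Fcer2a. Before any other gene was read, the chosen cells were therefore cells with a little detected Cd9 RNA rather than a class set apart by it. B cell genes that the gate did not use were present: Cd79b, the other signaling chain of that receptor, was found in 47 of 48 h219-LLG cells and 31 of 31 control cells.

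Cd9 detection itself was not specific to these cells. A Cd9 UMI was found in 7.09% (5.27 to 9.29, Clopper-Pearson) of Fcer2a- B cells with h219-LLG and 6.64% (4.55 to 9.29) of those in the control, against 3.56% (2.59 to 4.77) and 2.97% (1.98 to 4.26) of Fcer2a+ B cells. In T cells (a Cd3e UMI and none of Cd79a, Ms4a1 or Csf1r) the share was higher, 14.6% in the h219-LLG library and 17.0% in the control library, at median depths of 6000.5 and 7113 UMIs against 3566 and 4157 UMIs in Fcer2a- B cells. After each cell was thinned to 1500 UMIs and the gate was applied anew, which left out 182 h219-LLG and 179 control cells below that depth, the shares were 2.21% and 2.28% of Fcer2a- B cells, 1.36% and 2.03% of Fcer2a+ B cells, and 4.61% and 4.64% of T cells. At that depth the intervals of the Fcer2a- and Fcer2a+ B cells overlapped in both libraries.

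The libraries held 8807 and 6133 barcodes (h219-LLG and control), with a median of 4434 and 5469 UMIs, and 7433 and 5607 of these were kept. They shared 13 barcodes in all and 0 among the Cd9+ Fcer2a- B cells. These cells were deeper than the rest: their median was 5776.5 UMIs (2366 to 55328) with h219-LLG and 6129 UMIs (3804 to 12796) in the control, against 3634.5 and 4450 UMIs in Fcer2a+ Cd9- B cells, the 1164 h219-LLG and 916 control cells of the same gate with a Fcer2a UMI and no Cd9 UMI that serve as the comparison throughout. Cells above 10000 UMIs were 12 of the 48 h219-LLG and 5 of the 31 control Cd9+ Fcer2a- B cells, but 1.03% and 1.53% of the Fcer2a+ Cd9- B cells. A UMI of a gene of another lineage (Cd3d, Cd3g, Ncr1, Nkg7, Lyz2, C1qa, S100a8, Siglech, Ppbp, Pf4, Pmel or Dct) was found in 18 of 48 h219-LLG cells (37.5%) and 12 of 31 control cells (38.7%), against 21.3% and 14.2% of the Fcer2a+ Cd9- B cells. T cell genes (Cd3d or Cd3g) were found in 11 h219-LLG and 4 control cells, Lyz2 in 6 and 4, and Ncr1 in 3 and 0. Over whole marker lists, a UMI of any of 6 T cell genes was found in 12 h219-LLG and 7 control cells of the set, of any of 5 natural killer cell genes in 8 and 1, and of any of 10 macrophage and monocyte genes in 14 and 5. Per cell these lists summed to at most 1233 and 1425 CPM, 7081 and 579 CPM, and 432 and 12726 CPM. A doublet score marked 8 of the 48 and 5 of the 31. The part of these deep or mixed barcodes in the results was not tested, and values below are repeated over the 30 h219-LLG and 19 control cells with no UMI of another lineage, called lineage-clean cells here.

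The share of Cd9+ Fcer2a- B cells differed between the libraries by less than counting error. They were 0.646% (0.477 to 0.855) of kept h219-LLG cells and 0.553% (0.376 to 0.784) of kept control cells, a ratio of 1.17 (0.745 to 1.83). Among gated B cells, 1884 and 1411 in number, they were 2.55% (1.88 to 3.36) with h219-LLG and 2.20% (1.5 to 3.10) in the control. The interval of the ratio allows a share from 0.745 to 1.83 times that of the control, so a difference within that range was not detectable with this many cells.

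Cell by cell, the set was uneven. Summed over the B-1 marker list (20 genes, 19 of them in the files), a h219-LLG cell held 0 to 19140 UMIs per 1000000 UMIs of that cell or class (CPM), with a median of 2536 CPM, and a control cell 351 to 10879 CPM, with a median of 1621 CPM. The medians of Fcer2a+ Cd9- B cells were 1069 CPM with h219-LLG and 947 CPM in the control. A minority of h219-LLG cells formed a long upper tail. The 4 lineage-clean h219-LLG cells with the highest B-1 sums, between 14923 and 19140 CPM, had 2296 to 4359 CPM of the follicular list, where the h219-LLG cells of the set had a median of 4003 CPM and Fcer2a+ Cd9- B cells of that library 6065 CPM. In the control, the highest B-1 sum (10879 CPM) belonged to a lineage-clean cell of 12685 UMIs with 30 UMIs of S100a6, 18 of Ahnak, 9 of Plscr1, 2 of Bhlhe41 and 1 of Zbtb32.

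**Figure D1:**
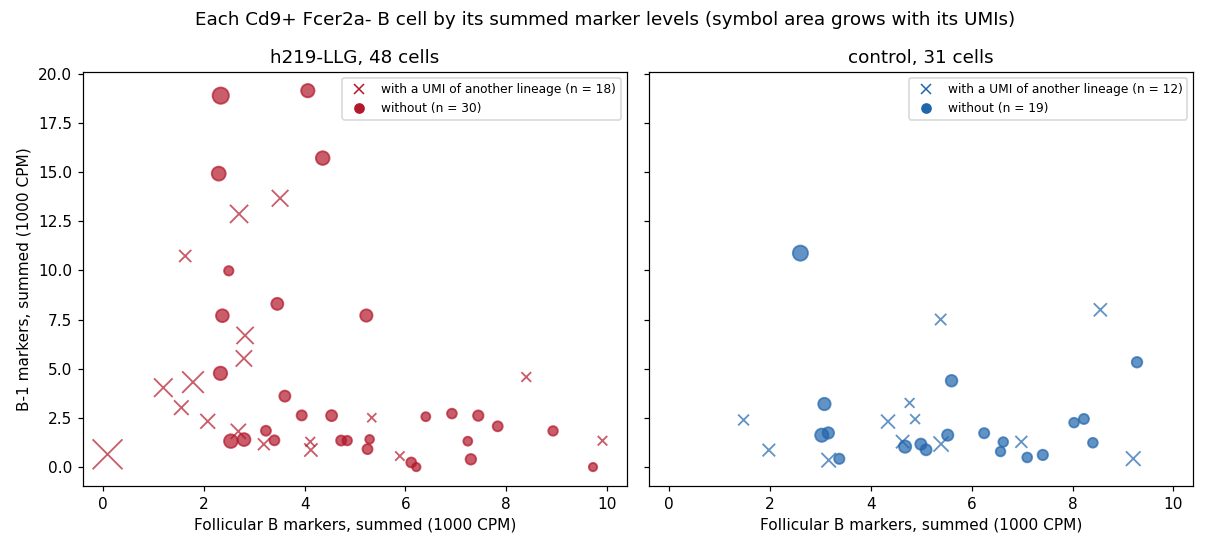
Summed follicular marker level (x axis) against summed B-1 marker level (y axis) of each Cd9+ Fcer2a- B cell, in 1000 CPM, for the h219-LLG library (left, 48 cells) and the control library (right, 31 cells). Crosses are cells with a UMI of another lineage and discs those without, and symbol area grows with the cell's UMIs. The h219-LLG cells reach 19140 CPM of B-1 markers and the control cells 10879 CPM, while their medians are 2536 and 1621 CPM.

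Some of the deepest cells carried genes of other cell types or states. The deepest h219-LLG cell held 55328 UMIs, 13.0% of all UMIs of the h219-LLG set, with 58 UMIs of Top2a and 40 of Mki67, genes of dividing cells, 18 of Rgs13 and 11 of S1pr2, genes of germinal center B cells, 32 of Jchain and 0 of S100a6. Its follicular markers summed to 90.4 CPM. The third deepest, of 20062 UMIs, held 90 UMIs of Gzma, 23 of Nkg7 and 7 of Ncr1, genes of natural killer cells, and another h219-LLG cell held 61 of Gzma. The second deepest held 11 UMIs of Cd3d and 6 of Cd3g, and had the most Cd9 of the h219-LLG cells with 6 UMIs. In the control, the cell with the most Cd9 (7 UMIs) held 38 UMIs of Lyz2, the lysozyme of myeloid cells.

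Markers of B-1 cells were higher in Cd9+ Fcer2a- than in Fcer2a+ Cd9- B cells in both libraries. A gene was measured with at least 50 UMIs over both classes in each library, and counted as past the fold with a ratio of at least 2 or at most 0.5 in both libraries and neither interval including 1. Of 6318 genes measured, 47 (0.744%) were past the fold higher and 22 (0.348%) lower. Of the B-1 list 11 genes were measured, of which 6 were past the fold higher and 0 lower, 11 were higher in the h219-LLG library and 10 in the control library. Their median log2 ratio was 1.58 with h219-LLG and 1.17 in the control, where the median of all genes was -0.03 and 0.00, and in lineage-clean cells of both classes it was 2.21 and 1.15. Because the gate and the readout share the same RNA, and the list was drawn up with results of these data known, these counts are a description. Many of these genes are also expressed by T cells, whose B-1 list summed to 2463 and 2352 CPM, against 5440 and 2619 CPM in Cd9+ Fcer2a- and 1357 and 1149 CPM in Fcer2a+ Cd9- B cells. The list summed to 2151.5 and 1598 CPM in Fcer2a+ Cd9+ B cells and to 1778 and 1316 CPM in Fcer2a- Cd9- B cells. A level above that of Fcer2a+ Cd9- B cells was thus not particular to the set.

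The leading gene was S100a6 (ENSMUSG00000001025, chromosome 3, 90612882 to 90624181, plus strand, build GRCm38 or mm10), which encodes a small calcium-binding protein. With h219-LLG it had 830 UMIs in 21 of 48 Cd9+ Fcer2a- B cells, a level of 1950.35 CPM (1819.9 to 2088, exact Poisson), and in the control 57 UMIs in 7 of 31 cells, a level of 270.0 CPM (204 to 350). In Fcer2a+ Cd9- B cells it had 55.9 CPM with h219-LLG and 15.8 CPM in the control, so the ratio between classes was 34.9 (30.3 to 40.3) with h219-LLG and 17.1 (11.8 to 24.7) in the control. In lineage-clean cells the ratios were 75.4 and 24.0, and T cells of the same libraries had 298 and 252 CPM. Both control ratios rested on few cells. Of the 57 control UMIs, 30 came from 1 lineage-clean cell and 19 from 1 cell with a UMI of another lineage. Ahnak (ENSMUSG00000069833, chromosome 19, 8989284 to 9076914, plus strand), a very large scaffold protein, had 533 CPM with h219-LLG and 327 CPM in the control in Cd9+ Fcer2a- B cells, against 64.1 and 58.6 CPM in Fcer2a+ Cd9- B cells. Fcer2a+ Cd9+ B cells lay between, with 225 CPM with h219-LLG and 249 CPM in the control. The Ahnak ratio of the set to Fcer2a+ Cd9- B cells was 8.32 (6.97 to 9.93) with h219-LLG and 5.58 (4.21 to 7.31) in the control. In lineage-clean cells it was 14.9 and 6.72. Cytoskeletal and membrane genes of the list went the same way. Vim (vimentin) was 3.0 times as high with h219-LLG and 2.24 times in the control, Lgals1 (galectin-1) 5.79 and 4.90 times, and Crip1 2.10 and 1.80 times. In lineage-clean cells Vim had ratios of 4.73 and 2.23, and Lgals1 11.4 with h219-LLG but 2.14 in the control.

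Regulators of B-1 cells were found among the genes of the list that stood higher, though Zbtb32 was below the minimum of UMIs in both libraries. Bhlhe41 (ENSMUSG00000030256, chromosome 6, 145858243 to 145865558, minus strand) had 63.4 CPM (41.8 to 92.3) in h219-LLG cells and 66.3 CPM (36.3 to 111) in control cells of the set, against 15.3 and 19.3 CPM in Fcer2a+ Cd9- B cells, with ratios of 4.16 (2.56 to 6.56) and 3.44 (1.80 to 6.10), and 4.64 and 4.19 in lineage-clean cells. It was found in 11 of 48 h219-LLG cells (22.9%) and 9 of 31 control cells (29.0%), against 5.15% and 7.31% of Fcer2a+ Cd9- B cells and 0.194% and 0.852% of T cells, whose median depth was above that of the set. Of Fcer2a+ Cd9+ B cells, 2.33% with h219-LLG and 21.4% in the control held a Bhlhe41 UMI. Thinned to 1500 UMIs, the shares were 8.33% and 12.9% of Cd9+ Fcer2a- B cells and 1.46% and 2.95% of Fcer2a+ Cd9- B cells. Unlike S100a6, Bhlhe41 differed little between the libraries. Zbtb32 (ENSMUSG00000006310, chromosome 7, 30589681 to 30598909, minus strand), a zinc finger repressor of B-1 and memory B cells, had 22 UMIs in 10 h219-LLG cells and 2 UMIs in 2 control cells, or 51.7 CPM (32.4 to 78.3) and 9.47 CPM (1.15 to 34.2), against 2 UMIs in all 1164 h219-LLG Fcer2a+ Cd9- B cells and 6 in the 916 of the control. Plscr1 (ENSMUSG00000032369, chromosome 9, 92249750 to 92272278, plus strand), a phospholipid scramblase, had 56.4 CPM with h219-LLG and 90.0 CPM in the control, 9.71 (5.37 to 17.5) and 9.93 (5.42 to 17.6) times its level in Fcer2a+ Cd9- B cells, and 18.9 and 17.4 times in lineage-clean cells. Anxa2, an annexin that T cells also express, had 141 CPM with h219-LLG and 23.7 CPM in the control, against 7.74 and 3.95 CPM in Fcer2a+ Cd9- B cells. Fcer2a+ Cd9+ B cells had 10.9 CPM of Anxa2 with h219-LLG and 37.9 CPM in the control. Anxa2 was below the minimum in the control library. Lineage-clean cells held 8 of its 49 h219-LLG UMIs at 2 or more Cd9 UMIs, and 4 of 11 at 1 Cd9 UMI. In the control they held 0 of 2 and 1 of 3.

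The list was not uniform. Cd5, the surface protein that defines B-1a cells, had 2 UMIs in 48 h219-LLG cells and 1 UMI in 31 control cells, no more (4.70 and 4.74 CPM) than counting error allows beside 4.73 and 2.32 CPM in Fcer2a+ Cd9- B cells. Spn, which encodes CD43, had 10 and 2 UMIs, but 98.2 and 91.3 CPM in T cells against 23.5 and 9.47 CPM in the set. Tnfrsf13b, the BAFF and APRIL receptor TACI, was 1.19 (0.910 to 1.54) times its level in Fcer2a+ Cd9- B cells with h219-LLG and 0.624 (0.282 to 1.2) times in the control. Atxn1, the ataxin-1 gene, had an h219-LLG ratio of 5.61 in all cells and 5.90 in lineage-clean cells, but a control ratio of 8.62 in all cells and 1.36 in lineage-clean cells. Atxn1 was below the minimum of UMIs in the control library.

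**Figure D2:**
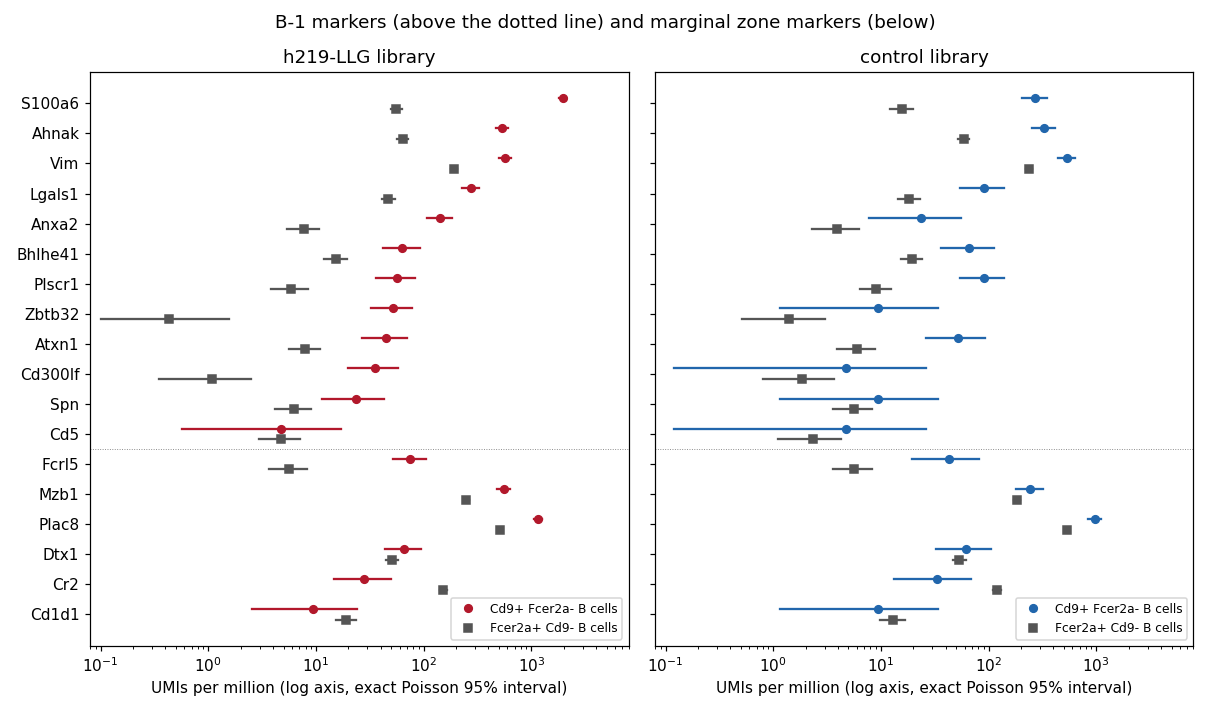
Level of B-1 markers (above the dotted line) and marginal zone markers (below it) in Cd9+ Fcer2a- B cells (discs) and Fcer2a+ Cd9- B cells (squares), in CPM on a log axis with exact Poisson 95% intervals, for the h219-LLG library (left) and the control library (right). S100a6 stood at 1950.35 against 55.9 CPM with h219-LLG and 270.0 against 15.8 CPM in the control, while Cr2 lay lower in Cd9+ Fcer2a- B cells in both.

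Markers of marginal zone B cells did not go together. Of the 20 genes of that list 12 were measured, of which 0 were past the fold higher and 1 lower, with 6 higher and 6 lower in each library and a median log2 ratio of -0.04 with h219-LLG and 0.06 in the control. The gene past the fold lower was Cr2 (ENSMUSG00000026616, chromosome 1, 195136811 to 195176716, minus strand), the complement receptor CD21 that marginal zone B cells carry most of. It had 28.2 CPM (14.6 to 49.3) in Cd9+ Fcer2a- B cells with h219-LLG and 33.2 CPM (13.3 to 68.3) in the control, against 152 and 119 CPM in Fcer2a+ Cd9- B cells, ratios of 0.185 (0.0954 to 0.326) and 0.279 (0.111 to 0.578). Cd1d1 had 4 and 2 UMIs, S1pr3 1 and 0, and Myof 0 and 2, so these defining genes could not be compared at this depth. Dtx1, a Notch target, had ratios of 1.29 (0.840 to 1.91) and 1.15 (0.602 to 2.00).

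A few genes of the list had ratios above 1 in both libraries, though not all beyond counting error. Plac8 had 1158 CPM (1058 to 1265) in h219-LLG cells and 976 CPM (847 to 1119) in control cells, 2.27 (2.05 to 2.50) and 1.81 (1.56 to 2.09) times its level in Fcer2a+ Cd9- B cells. Mzb1, an endoplasmic reticulum cochaperone for antibody secretion, had ratios of 2.21 (1.92 to 2.55) and 1.31 (0.966 to 1.74). The control interval thus included 1, and the deepest h219-LLG cell alone held 40 Mzb1 UMIs. Fcrl5, an Fc receptor-like protein of marginal zone and B-1 cells, was below the minimum in the control library. It had 32 UMIs in 14 h219-LLG cells and 9 UMIs in 5 control cells, ratios of 13.5 (7.77 to 23.5) and 7.64 (3.13 to 17.0). Fcer2a+ Cd9+ B cells held Fcrl5 RNA as well, with 9 UMIs (32.6 CPM) with h219-LLG and 8 UMIs (43.3 CPM) in the control. The data thus went partly against a name that puts marginal zone and B-1 cells side by side, since Cr2 was lower and the other defining marginal zone genes were too few to read. The cells are called by their gate here for that reason.

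Follicular markers were lower. Of 13 measured genes of the follicular list, 13 were lower than in Fcer2a+ Cd9- B cells in the h219-LLG library and 11 in the control library, with 1, Pxk, past the fold lower in both and 0 higher. The median log2 ratio was -1.39 with h219-LLG and -0.44 in the control, and -0.72 and -0.31 in lineage-clean cells. Satb1 (ENSMUSG00000023927, chromosome 17, 51736187 to 51833290, minus strand), a chromatin organizer, had a ratio of 0.307 (0.242 to 0.384) with h219-LLG but 0.736 (0.615 to 0.873) in the control, and Ms4a4c 0.125 (0.0536 to 0.247) but 0.903 (0.585 to 1.34). Bach2, a repressor of plasma cell fate, had ratios of 0.364 and 0.503. The chemokine receptors Ccr7 and Cxcr5 were nearer to 1, with 0.578 and 0.843 in the h219-LLG library and 0.926 and 1.08 in the control library.

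All 11 measured genes of the MHC class II list were lower in Cd9+ Fcer2a- B cells in both libraries, with a median log2 ratio of -0.69 with h219-LLG and -0.59 in the control and -0.37 and -0.38 in lineage-clean cells, though only H2-Oa (ratios 0.439 and 0.425) was past the fold. Cd74, the invariant chain, had 6702 CPM with h219-LLG and 6693 CPM in the control against 9549 and 10306 CPM, ratios of 0.702 (0.676 to 0.729) and 0.649 (0.616 to 0.685). H2-Aa had ratios of 0.620 and 0.648. Of 18 measured B lineage transcription factors, 14 with h219-LLG and 13 in the control were lower by any amount, 0 were past the fold lower in both libraries and 1, Bhlhe41, was past it higher. Ebf1 had ratios of 0.473 (0.423 to 0.527) and 0.769 (0.684 to 0.861), Mef2c 0.429 and 0.633, and Pax5 0.551 and 0.697. In lineage-clean cells the Ebf1 ratios were 0.662 and 0.868 and the Pax5 ratios 0.795 and 0.748. Cd79b had a ratio of 0.913 (0.821 to 1.01) with h219-LLG and 0.998 (0.849 to 1.17) in the control.

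**Figure D3:**
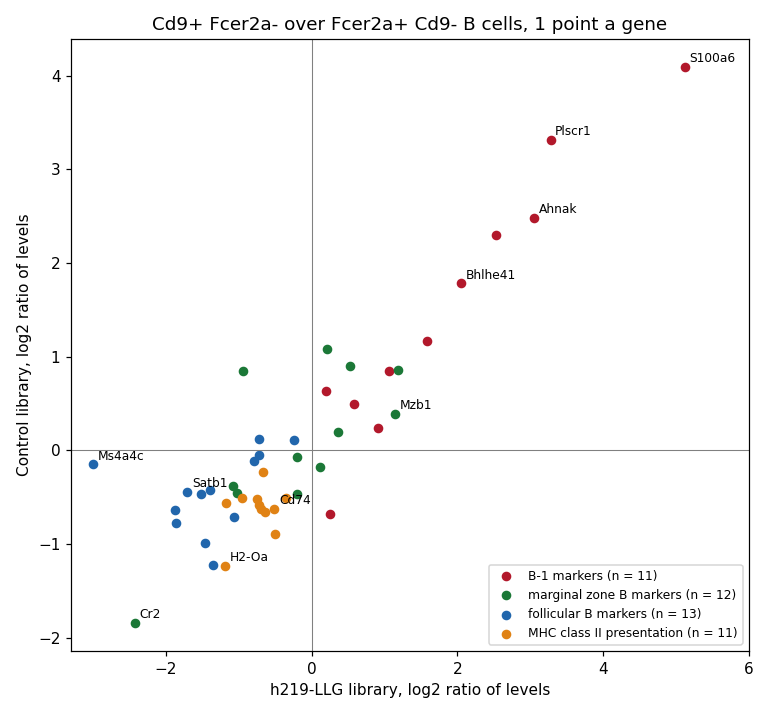
Log2 ratio of levels, Cd9+ Fcer2a- over Fcer2a+ Cd9- B cells, in the h219-LLG library (x axis) and the control library (y axis), 1 point per measured gene of the B-1, marginal zone, follicular and MHC class II lists. The B-1 markers lie toward the upper right with S100a6 farthest out, the MHC class II genes lie below 0 in both libraries, and the marginal zone markers spread on both sides.

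Across all genes with at least 100 UMIs in each library, the 10 whose smaller ratio of both libraries was highest were S100a6, Id2, Ahnak, Ms4a4b, Atf3, Cbfa2t3, Emb, Selplg, Ccnd2 and Socs3. Ccnd2, the cyclin D2 that B-1 cells express at rest, had ratios of 4.03 (3.15 to 5.12) with h219-LLG and 2.86 (1.96 to 4.06) in the control. Atf3, a stress-induced transcription factor, had 3.82 and 3.45, and Socs3, a feedback inhibitor of cytokine signaling, 2.74 and 3.68. Lineage-clean cells gave similar or higher ratios, 4.30 and 3.88 for Ccnd2, 4.37 and 5.27 for Atf3, and 4.34 and 4.71 for Socs3. The same held for Cbfa2t3, a corepressor, with 3.59 and 3.14 in all cells and 3.87 and 2.93 in lineage-clean cells, and for Emb, a cell adhesion protein, with 3.07 and 3.61 in all cells and 3.43 and 4.31 in lineage-clean cells. Ms4a4b and Selplg were not: Ms4a4b, a T cell gene, had ratios of 3.54 and 3.93 in all cells but 1.30 and 0.933 in lineage-clean cells, and Selplg 3.29 and 2.94 but 1.21 and 1.77. Id2, an inhibitor of E proteins that natural killer and dendritic cells also express, kept 2.61 of its ratio of 7.73 with h219-LLG and had 11.7 in place of 7.31 in the control.

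At the other end stood Hes1, Cr2, Il4i1, Lmo2, Cnr2, Arl5b, Zfp608, Slf1, Rasgef1b and Dennd5b. Hes1, like Dtx1 a target of Notch, had 5 UMIs with h219-LLG and 2 in the control, ratios of 0.219 (0.0706 to 0.519) and 0.173 (0.0209 to 0.634). Lmo2, a LIM domain adaptor, had ratios of 0.159 (0.0791 to 0.287) and 0.329 (0.163 to 0.592), and Cnr2, the cannabinoid receptor that retains marginal zone B cells in the mouse spleen, 0.344 and 0.275 on 5 and 2 UMIs. Of the 47 genes past the fold higher, 16 were also past it in lineage-clean cells, and of the 22 lower, 4 were. Genes of T cells were among those 47, namely Cd3d, Lck, Txk and Fyb beside Ms4a4b, which were picked out after their values were seen. With TMM scaling the split between higher and lower was 35 to 42 in place of 47 to 22, and with each cell given the same weight it was 35 to 9.

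Within Fcer2a- B cells, several genes followed the number of Cd9 UMIs. S100a6 had 257, 812 and 3551 CPM in h219-LLG cells with 0, 1 and 2 or more Cd9 UMIs, and 16.6, 248 and 323 CPM in control cells. Ahnak had 127, 314 and 843 CPM with h219-LLG and 63.8, 322 and 339.6 CPM in the control. The steps therefore differed between libraries, with the upper one large for h219-LLG and within counting error for both genes in the control. Ebf1 ran the other way in both libraries, with 1744, 965 and 582 CPM with h219-LLG and 1941, 1588 and 1148 CPM in the control. The cells with 2 or more Cd9 UMIs numbered only 13 and 8, and were deeper (median 11580 and 7566.5 UMIs) than those with 1 (4383 and 5692 UMIs). After thinning to 1500 UMIs, 3 or more B-1 list genes were found in 17.4%, 42.9% and 92.3% of h219-LLG cells with 0, 1 and 2 or more Cd9 UMIs, and in 13.6%, 26.1% and 50% of control cells, beside 18.6% and 16.1% of Fcer2a+ Cd9- B cells. Of the 8 control cells with 2 or more Cd9 UMIs only 1 was lineage-clean, and of the 13 h219-LLG cells 7 were, of which 85.7% held 3 or more B-1 list genes.

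**Figure D4:**
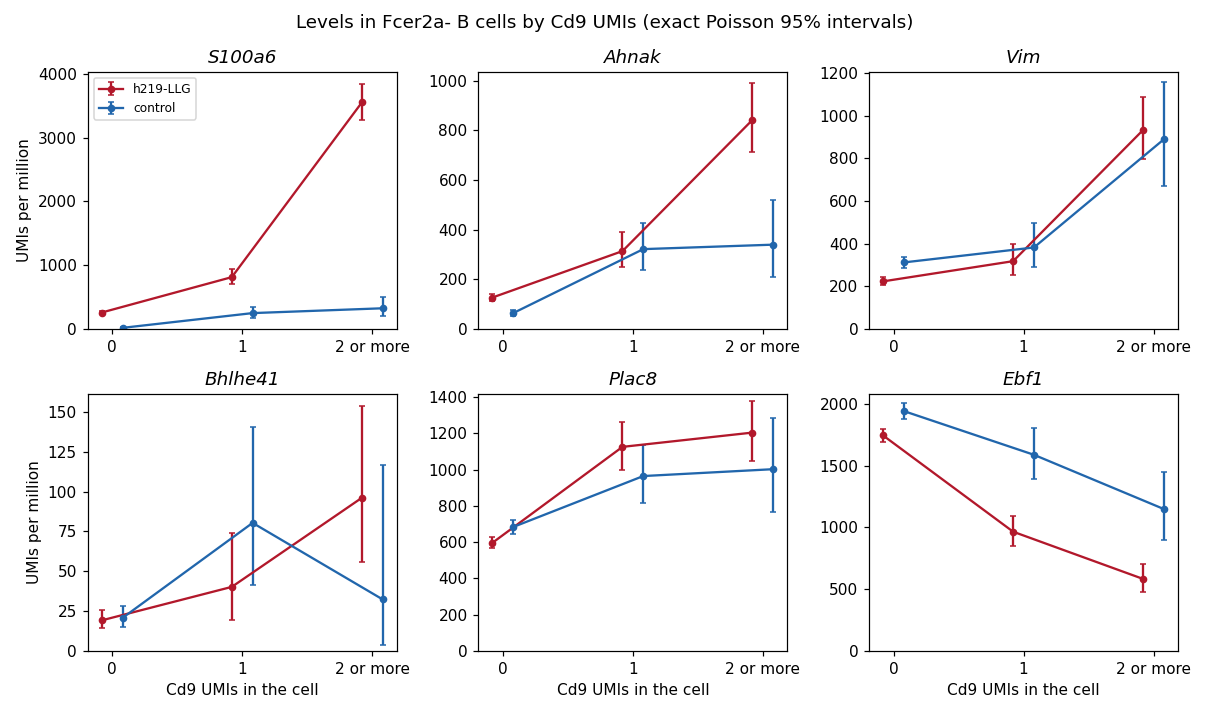
Levels of S100a6, Ahnak, Vim, Bhlhe41, Plac8 and Ebf1 (CPM, y axes) in Fcer2a- B cells with 0, 1 and 2 or more Cd9 UMIs (x axis), h219-LLG in red and control in blue, with exact Poisson 95% intervals. S100a6 reached 3551 CPM with h219-LLG and 323 CPM in the control at 2 or more Cd9 UMIs, and Ebf1 was lower with more Cd9 in both.

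Marker UMIs split the set without sorting it cleanly. A UMI of Bhlhe41, Zbtb32, Cd5 or Spn was found in 20 of 48 h219-LLG cells (41.7%) and 10 of 31 control cells (32.3%), against 8.33% and 10.6% of Fcer2a+ Cd9- B cells, and in thinned cells in 18.8% and 16.1% against 2.75% and 4.04%. A UMI of Cr2, Cd1d1, Dtx1 or Myof was found in 25 (52.1%) and 12 (38.7%), against 46.0% and 49.0%, and in thinned cells in 18.8% and 25.8% against 24.5% and 22.1%. The direction in each library thus turned with thinning. Without thinning, both kinds were found in 10 h219-LLG and 3 control cells, and neither in 13 and 12. With Dtx1 left out, a UMI of Cr2, Cd1d1 or Myof was found in 11 of 48 h219-LLG and 7 of 31 control cells. In Fcer2a+ Cd9- B cells it was found in 448 of 1164 and 344 of 916, a larger share in both libraries. Between these sides, the B-1 side was thus the one on which the set stood higher in both libraries, and a large minority of cells carried no marker of either side. Other B cell states were not part of this split. A list of memory and atypical B cell markers summed to 416 CPM with h219-LLG and 388 CPM in the control, against 261 and 257 CPM in Fcer2a+ Cd9- B cells. Its 3 measured genes had median log2 ratios of 0.36 and 0.30, with 0 past the fold.

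The cells with Bhlhe41 or Zbtb32 RNA had more S100a6, Ahnak and Vim RNA than the other cells of the set. Among h219-LLG cells, the 15 with a UMI of either gene had 4494 CPM of S100a6 and the other 33 had 387 CPM, and among control cells the 9 with a UMI had 873 CPM and the other 22 had 20.1 CPM. Ahnak had 1012 against 239 CPM with h219-LLG and 793 against 134 CPM in the control, and Vim 1235 against 167 CPM and 1375 against 181 CPM. In the control, 1 cell held 30 of the 54 S100a6 UMIs of the 9 cells and 18 of their 49 Ahnak UMIs. Another of the 9 held 19 and 20. Of the other genes of the B-1 list, some had overlapping intervals with h219-LLG, Anxa2 with 148 CPM (94.9 to 220.5) against 137 CPM (95.7 to 189) and Atxn1 with 55.6 CPM (25.4 to 105) against 37.9 CPM (18.2 to 69.8). In the control Anxa2 had 4 UMIs against 1 UMI. Plscr1 had 123 against 15.2 CPM with h219-LLG, and in the control 146 CPM from 1 cell against 67.0 CPM from 5 cells. Cr2 was found in 1 of the 15 (6.67%) and 8 of the 33 (24.2%) with h219-LLG, and in 0 of the 9 and 4 of the 22 (18.2%) in the control. Its intervals overlapped, at 6.17 CPM (0.156 to 34.4) against 41.7 CPM (20.8 to 74.7) with h219-LLG. In the control they were 0 to 59.7 CPM against 18.9 to 96.6 CPM. Satb1 had 74.1 against 250.4 CPM with h219-LLG and 485 against 710.0 CPM in the control. Depth went along with this split, at a median of 9865 UMIs against 4411 with h219-LLG and 6607 against 5851 in the control, and its part was not tested. In lineage-clean cells S100a6 had 5153 against 435 CPM with h219-LLG (9 and 21 cells) and 956 against 26.2 CPM in the control (5 and 14 cells). Of the 34 S100a6 UMIs of those 5 control cells, 30 came from 1 cell.

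B cells with much S100a6 were found almost only with h219-LLG. A count of 10 or more S100a6 UMIs, a threshold chosen after the values were seen, was reached by 34 of 1884 gated B cells with h219-LLG (1.80%, 1.25 to 2.51) and 2 of 1411 in the control (0.142%, 0.0172 to 0.511). Of these, 13 of the 34 and both of the 2 were Cd9+ Fcer2a- B cells, where the shares were 27.1% (15.3 to 41.8) and 6.45% (0.791 to 21.4). In gated B cells outside the set there were 21 of 1836 with h219-LLG (1.14%, 0.709 to 1.74) and 0 of 1380 in the control, which allows a share of up to 0.217% by a limit of 3 counts and 0.267% by the Clopper-Pearson interval. Among lineage-clean gated B cells there were 17 of 1462 and 1 of 1214. T cells reached the count in 6.36% and 6.39%, and the median depth of gated B cells was 3621 UMIs with h219-LLG and 4355 UMIs in the control. Interleukin-10 RNA, also picked out after its values were seen, was too sparse to compare, with 7 UMIs in 2 h219-LLG cells and 3 UMIs in 1 control cell.

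Within the set, 1690 genes had at least 50 UMIs over both libraries, and 90 (5.33%) were past the fold higher and 89 (5.27%) lower with h219-LLG than in the control. The median log2 ratio was -0.04, with 802 genes higher and 888 lower by any amount. Leaving out the 138 genes with over 25% of their UMIs in 1 cell left 51 higher and 86 lower, and TMM scaling gave 107 and 65 in place of 90 and 89. Lineage-clean cells, with 654 genes measured, had 28 higher and 37 lower. Without the deepest h219-LLG cell, an alternative chosen after the data were seen, there were 57 higher and 72 lower. The counts thus moved with the cells that were summed.

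The 8 highest and the 8 lowest ratios were read among genes with at least 100 UMIs in the set and no more than 25% of them in 1 cell. Itgb1 (ENSMUSG00000025809, chromosome 8, 128685654 to 128733200, plus strand), the beta chain of the integrins that bind collagen, laminin and fibronectin, had 104 UMIs in 18 h219-LLG cells and 7 UMIs in 5 control cells, or 244 CPM (199.7 to 296) and 33.2 CPM (13.3 to 68.3), a ratio of 7.37 (3.45 to 18.8). Its ratio was 4.30 (1.67 to 14.1) in lineage-clean cells and 0.844 (0.619 to 1.15) in Fcer2a+ Cd9- B cells. T cells had 107 and 109 CPM of it, and Fcer2a+ Cd9+ B cells 50.7 and 114 CPM. S100a6 followed at 7.22 (5.52 to 9.62), with 7.65 (5.44 to 11.1) in lineage-clean cells, and was also higher with h219-LLG in Fcer2a+ Cd9- B cells, at 3.54 (2.70 to 4.69). In Fcer2a- Cd9- B cells it had 257 CPM with h219-LLG and 16.6 CPM in the control, and in Fcer2a+ Cd9+ B cells 290 and 48.8 CPM. The S100a6 difference between libraries was thus not particular to the set. S100a11 had 4.56 (2.87 to 7.65), against 1.26 (1.13 to 1.40) in Fcer2a+ Cd9- B cells, Lgals1 3.03 (1.85 to 5.21) against 2.56, Fxyd5 2.95 against 1.36, and Ly6a, the interferon-inducible Sca-1, 2.58 (1.86 to 3.67) against 1.88. Gm10076 (4.77 against 2.74) and Atp5j2, a subunit of ATP synthase (2.68 against 1.23), completed the 8 highest. Whether the ratios of both classes differ could not be tested with 1 library per condition.

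Cd83, an activation marker that stabilizes MHC class II, had 45 UMIs in 25 h219-LLG cells and 82 UMIs in 27 control cells, or 106 and 388 CPM, the lowest of these ratios at 0.272 (0.185 to 0.396). Nr4a1, an immediate early gene of antigen receptor signals, had 0.326 (0.224 to 0.472), and Satb1 0.285 (0.213 to 0.379). Dmxl1 (0.301), Arap2 (0.333), the insulin receptor substrate Irs2 (0.362) and the ETS factor Elf1 (0.363) were also among the 8 lowest. Each of these 7 genes was below 1 in Fcer2a+ Cd9- B cells too, from 0.486 for Nr4a1 and 0.494 for Cd83 to 0.825 for Elf1, and in lineage-clean cells they ranged from 0.272 for Cd83 to 0.464 for Elf1.

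**Figure D5:**
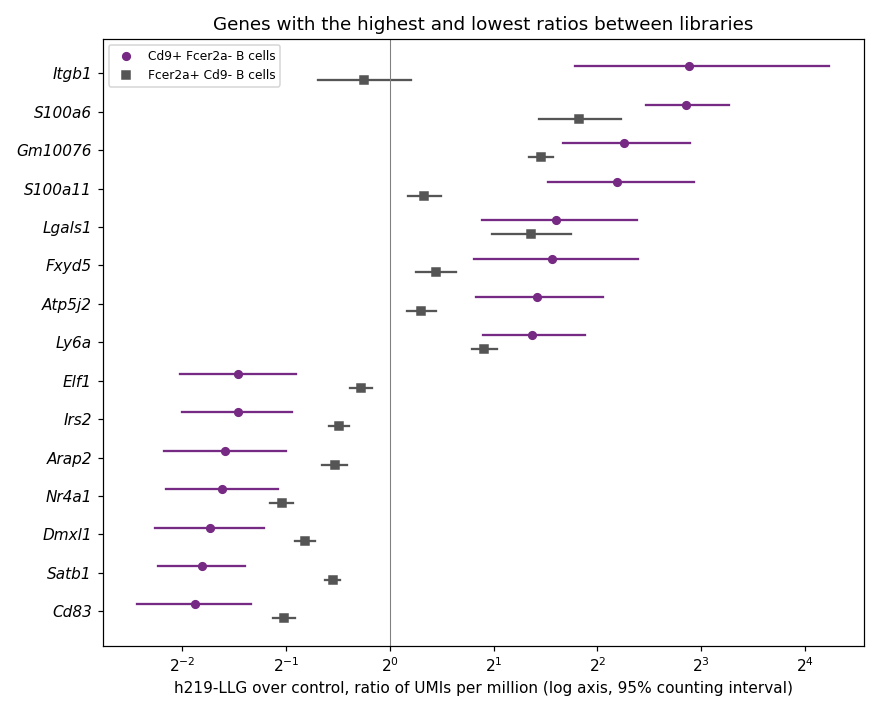
Ratio of CPM, h219-LLG over control (log axis, 95% counting intervals), of the 8 genes with the highest ratio and 7 of the 8 with the lowest ratio in Cd9+ Fcer2a- B cells (discs), with the same genes in Fcer2a+ Cd9- B cells (squares). Itgb1 had 7.37 against 0.844, and all other genes shown lay on the same side of 1 in both classes.

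Gene groups differed in how they compared between the libraries. Of 10 measured B-1 list genes 8 were higher with h219-LLG, 5 of them past the fold (S100a6, Anxa2, Tnfrsf13b, Lgals1 and Crip1), with a median log2 ratio of 0.86, 0.93 in lineage-clean cells and 0.64 for the same genes in Fcer2a+ Cd9- B cells. Tnfrsf13b had 65 UMIs in 28 h219-LLG cells and 9 UMIs in 9 control cells, a ratio of 3.58 (1.78 to 8.18), and Crip1 2.03 (1.64 to 2.53). These calls depended on the cells that were summed. Crip1 had a ratio of 1.22 under 5% mitochondrial UMIs, 1.81 in lineage-clean cells and 1.93 with each cell given the same weight. Lgals1 had 1.73 under 5% mitochondrial UMIs and 1.82 at 2 or more Cd9 UMIs, against 6.95 in lineage-clean cells. S100a6 had 22.8 under 5% mitochondrial UMIs, and Anxa2 3.22 with equal weights. Most Anxa2 UMIs of the set came from cells with a UMI of another lineage. Of 9 measured follicular genes 8 were lower, 3 past the fold (Satb1, Zfp318 and Ccr7), with a median log2 ratio of -0.67 that was -0.09 in lineage-clean cells and -0.16 in Fcer2a+ Cd9- B cells. Ccr7 had 289 CPM with h219-LLG and 658 CPM in the control, a ratio of 0.439 (0.342 to 0.564). With equal weights Ccr7 had 0.610 and Zfp318 0.641, both within the fold, and Satb1 had 0.119 at 2 or more Cd9 UMIs. Of 6 measured marginal zone genes 3 were higher and 3 lower. Mzb1, with 552 and 242 CPM, had a ratio of 2.29 (1.68 to 3.16).

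All 10 measured MHC class II genes were within the fold, with a median log2 ratio of -0.14, and Cd74 had a ratio of 1.00 (0.939 to 1.07). Of 7 measured genes of costimulation and activation 6 were lower and 3 past the fold, Cd83, Nr4a1 and Cd86 (0.354, 0.203 to 0.609). Of 13 measured B lineage transcription factors 10 were lower and 1, Foxo1, past the fold, and Ebf1 had 806 CPM with h219-LLG and 1459 CPM in the control, a ratio of 0.552 (0.472 to 0.646) against 0.898 in Fcer2a+ Cd9- B cells. Among inhibitory receptors, Cd72 had 0.420 (0.256 to 0.685), and Fcgr2b (1.68, 0.888 to 3.40) and Cd22 (1.32, 0.828 to 2.15) had intervals that included 1. Mouse Lair1, which the labels give as knocked out, had 1 UMI in the h219-LLG cells and 0 UMIs in the control cells, and 154 UMIs (33.1 CPM) and 29 UMIs (6.74 CPM) in Fcer2a+ Cd9- B cells. Of 4 measured cell cycle genes 3 were past the fold higher, but 85.3% of the UMIs of Top2a, at 66 UMIs with h219-LLG and 2 in the control, came from 1 cell, and its ratio of 16.4 was 2.28 without the deepest h219-LLG cell. Gzma had 152 UMIs in 3 h219-LLG cells and 0 UMIs in the control. Lyz2 had 7 UMIs in 6 h219-LLG cells and 48 UMIs in 4 control cells, and 69.1% of its UMIs came from 1 cell.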

How the data were processed

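The authors deposited raw counts of UMIs, from Cell Ranger 5.0.0 on mm10 per the labels, and only for barcodes called as cells. Barcodes with at least 500 UMIs, at least 200 genes and mitochondrial UMIs under 10% were kept, which removed 1193 h219-LLG and 367 control barcodes for mitochondrial UMIs. The gate is given in the report. The members and gene lists were chosen with earlier results of these data known. Doublets were scored against simulated pairs of cells, with 0.8% per 1000 kept cells marked (442 and 252 cells), and stayed in the main values. The UMIs of a class in a library were added up and scaled to the class total (CPM). Levels have exact Poisson intervals, shares Clopper-Pearson intervals, and ratios of 2 levels the binomial split interval, checked on simulated data. No test was made, since cells of 1 library are not replicates. Genes past the fold had a ratio of at least 2 or at most 0.5 and an interval without 1. The text names measured genes of the marker lists, the 2 highest and 2 lowest of other lists and their defining genes, the 8 highest and 8 lowest ratios between libraries and the 10 highest and 10 lowest between classes (at least 100 UMIs), and Lair1. Not every such gene is printed, and some are not reported here. Coordinates are from GENCODE vM21 on GRCm38, matched by Ensembl identifier for 338 of 339 genes. Immunoglobulin and T cell receptor constant genes and the human LAIR1 transgene were not analysed here. Python 3.11.15, numpy 2.4.6, scipy 1.17.1, pandas 2.3.3, scikit-learn 1.9.0 and matplotlib 3.10.9 were used.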

Additional observations from a re-analysis of the deposited data

Results flagged for a closer look

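Klf2, Cd55 and Gpr183 compared in opposite directions between the libraries in the 2 B cell classes, each with an interval that did not include 1. Klf2, a transcription factor of quiescence and homing, had a ratio (h219-LLG over control) of 0.761 in Cd9+ Fcer2a- B cells and 1.36 in Fcer2a+ Cd9- B cells. Cd55, a complement regulator, had 0.629 and 1.23, and Gpr183, the oxysterol receptor EBI2 that positions B cells, 0.679 and 1.38. The difference between classes was not tested, since each class has 1 library per condition. In cells without a UMI of another lineage the ratios in Cd9+ Fcer2a- B cells were 1.13 for Klf2, 0.937 for Cd55 and 0.958 for Gpr183.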

How the results depend on the processing

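No paired analysis was possible because each condition has 1 library and the labels give no replicate numbers. Of the share of Cd9+ Fcer2a- B cells, the ratio of 1.17 ranged from 0.793 (under 5% mitochondrial UMIs, 14 and 16 cells) to 1.23 (at least 2 Cd9 UMIs) over the 8 alternatives, all within the counting interval of the main value. Counts of genes past the fold moved more. Between libraries (90 higher and 89 lower), each cell given the same weight left 57 and 55, thinning to 1500 UMIs 4 and 5, a minimum of 20 UMIs 204 and 259, a minimum of 100 UMIs 32 and 29, at least 2 Cd9 UMIs 45 and 40, under 5% mitochondrial UMIs 56 lower, lineage-clean cells 28 and 37, and the set without its deepest h219-LLG cell 57 higher. Between classes (47 and 22), TMM scaling gave 42 lower, equal weights 9 lower, thinning 7 and 5, lineage-clean cells 18 and 8, and Fcer2a- Cd9- B cells as the comparison, chosen after seeing the data, 14 higher. Fewer genes or cells entered most of these counts. TMM moved all log2 ratios by 0.10 between libraries and by -0.13 (h219-LLG) and -0.16 (control) between classes. Gene ratios are given under an alternative only with at least 20 UMIs over both groups. Directions turned between libraries for Gpr183 (1.00 with equal weights, 1.42 thinned), Plac8 (0.865 thinned, 0.539 under 5% mitochondrial UMIs, 0.968 without marked doublets), S1pr1 (1.08 thinned) and Klf2 (1.13 in lineage-clean cells). Between classes they turned with h219-LLG for S1pr1 (1.01 with equal weights, 1.03 thinned), Gm10076 (0.755 thinned) and Zfp608 (1.00 thinned), and in the control for Cd22 (1.07), Gm10076 (1.19), Dmxl1 (1.07) and Emb (0.777) when thinned, for Cd83 (1.05) and Ms4a4b (0.933) in lineage-clean cells, and for Ms4a4b (0.672) without marked doublets. The causes were not tested. Of the other ratios of named genes, 109 between libraries, and 176 (h219-LLG) and 62 (control) between classes, moved beyond counting error, and 460, 530 and 637 did not.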

Other observations

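Summed over the plasma cell marker list (10 genes), the Cd9+ Fcer2a- B cells had 881 CPM with h219-LLG and 568 CPM in the control, against 459 and 449 CPM in Fcer2a+ Cd9- B cells. Of its genes, Sdc1, which encodes CD138, had 0 UMIs in the 48 h219-LLG cells and 2 UMIs in the 31 control cells. Prdm1, the transcription factor that drives plasma cells, had 20 UMIs in 12 h219-LLG cells and 6 UMIs in 5 control cells, or 47.0 and 28.4 CPM, against 3.87 and 4.65 CPM in Fcer2a+ Cd9- B cells, while T cells had 20.8 and 28.9 CPM. Prdm1 was below the minimum of UMIs in both libraries. Its ratio between classes was 12.1 (6.10 to 24.3) with h219-LLG and 6.11 (2.01 to 15.8) in the control. In cells without a UMI of another lineage it had too few UMIs for a ratio. In the control only 1 such cell of the set held Prdm1, with 1 UMI. Precursor B cell genes Vpreb1, Igll1 and Rag1 had 0 UMIs in the set in both libraries. The homing integrin gene Itgb1 had 13.7 (10.2 to 18.5) times its level in Fcer2a+ Cd9- B cells with h219-LLG and 1.57 (0.613 to 3.36) times in the control, and Cd44, an adhesion receptor of antigen-experienced cells, 1.92 (1.29 to 2.77) and 2.56 (1.55 to 4.05) times.

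Fcer2a- Cd9- B cells, which the gate tells from the set by Cd9 alone, had 257 CPM of S100a6 with h219-LLG and 16.6 CPM in the control. Fcer2a+ Cd9+ B cells had 290.0 and 48.8 CPM, and of their B-1 list genes 3 or more were found in 30.2% of 43 h219-LLG cells and 21.4% of 28 control cells thinned to 1500 UMIs.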
